A study of Mus musculus with 78 samples.

Results

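Nascent RNA was compared between TRIM28-FKBP mouse embryonic stem cells (mESCs) given 500 nM dTAG-13 for 2 h and the same cells given DMSO, with 3 libraries in each group. These 6 libraries are part of 12 made by TT-SLAM-seq, in which RNA is labelled with 4-thiouridine (4sU) for 15 min and only reads with a T-to-C conversion are counted. The table gives FPKM, in which reads are scaled by gene length and by library depth, for 54435 genes. The 13357 that reached 0.5 FPKM in 3 or more of the 12 libraries were tested and are described here. The whole series holds 78 samples, with RNA-seq, ChIP-seq, Hi-C and single-cell RNA-seq beside TT-SLAM-seq, and addresses TRIM28 loss at endogenous retroviruses (ERVs) and at genes near super-enhancers. The 2 h libraries, the earliest after dTAG-13, ask which genes change soonest.

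TRIM28 is a co-repressor that zinc finger proteins bring to ERVs, where it recruits the enzyme that writes H3K9me3, a mark of silent chromatin. FKBP is a tag that the molecule dTAG-13 ties to a ubiquitin ligase, so that the tagged protein is degraded within hours. Naive mESCs depend on leukaemia inhibitory factor (LIF), which acts through STAT3, and produce FGF4, which acts through the kinase ERK. Each of these pathways switches on its own inhibitors, and such feedback genes and the immediate early genes are known to respond within minutes to hours of a stimulus.

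All cells were V6.5 mESCs expanded from single colonies after a cassette of mRuby2, P2A and FKBP was inserted at the start of the Trim28 coding sequence, so that DMSO and dTAG-13 cells carry the same allele. They were grown on mouse embryonic fibroblasts, depleted of these feeders in 2 rounds, plated on gelatin and treated in medium with serum and LIF, into which dTAG-13 was mixed. The labels do not say that replicates are separate cultures, and a line grown from 1 colony may not stand for others. The labels put the DMSO libraries at 0 h, and 1 DMSO group serves every duration. Degradation of TRIM28 and the time since the medium was given therefore cannot be told apart in the values below. The guide used for the knock-in is shown because it fixes where the tag lies. It matched chromosome 7 of GRCm38.p6 at 1 place, chr7:13024712-13024731 on the plus strand, followed by the PAM CGG, and capitals mark the start codon of Trim28.
Trim28 guide: cgtgtgaATGgcggcctcgg

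The span counted for Trim28 begins well upstream of the coding start at chr7:13024719, and a read counts for each gene it overlaps. The share of the nascent value that comes from other transcripts was not tested. Trim28 had nascent reads in every library. Its nascent level (ENSMUSG00000005566.14, chr7:12999114-13031035, plus strand) was 1.98, 1.74 and 1.89 FPKM in DMSO and 1.48, 1.34 and 1.19 FPKM at 2 h. The 2 h libraries all lay below the DMSO libraries, with a log2 change of -0.37 (SE 0.07, adjusted p = 0.0231, limma on log2(FPKM + 0.5) with Benjamini-Hochberg adjustment over all genes tested). All log2 changes of nascent RNA and adjusted p-values below are from this test, and the pseudocount makes them understate the change of low genes. The mRNA of Trim28 differed by -0.06 on the log2 scale (adjusted p = 0.52), from 624 to 599 TPM (a level scaled per length and depth) in separate RNA-seq libraries. Since dTAG-13 acts on the protein, neither value checks its loss. The study describes near-complete degradation for a longer exposure to the molecule. How much TRIM28 protein remained at 2 h was not tested here, and its loss may be incomplete in the 2 h values below.

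Read depth and composition differed between libraries. The scaling totals recovered from the FPKM were 7293023 to 12600507 converted reads for the DMSO libraries, whereas 2 h libraries had 14097154 to 16296328. The gene Gm26917, a long non-coding RNA, took 33.4% to 38.1% of reads in DMSO, and 32.3%, 32.6% and 41.9% in the 2 h replicates 1, 2 and 3. The 2 h replicate 3 also had the lowest median, 0.51 on the log2(FPKM + 0.5) scale, against 0.60 to 0.66 in the other 5 libraries. A figure legend of the study calls the 3 replicates behind its TT-SLAM-seq values biological. Its methods also speak of technical replicates where coverage tracks were merged. The p-values measure only the spread between these libraries.

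Pluripotency genes were all transcribed. The summed level of their 20 markers was 116 to 155 FPKM in DMSO and 170 to 174 FPKM at 2 h, and none of the 20 was at 0 in all 6 libraries. The 20 feeder fibroblast markers summed to 4.39 to 5.65 FPKM in DMSO and 6.76 to 7.33 FPKM at 2 h, of which 2 were tested and Lum and Mmp3 were at 0. The 30 endoderm markers summed to 13.9 to 18.8 FPKM in DMSO and 16.4 to 18.6 FPKM at 2 h, with Cer1 at 0, and the 12 neural markers to 2.94 to 3.22 FPKM and 4.34 to 4.62 FPKM, with Fabp7 at 0. Fibroblast and neural sums thus lay higher at 2 h in every library, as did pluripotency sums, and their part in the results below was not tested.

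Few genes changed more than 2-fold at 2 h. At an adjusted p under 0.05, 17 genes were higher by more than 2-fold (0.127% of those tested) and 13 were lower by as much (0.0973%). Of the 17, 9 were protein-coding. Among the 17, 6 were shorter than 200 bp and 6 had a mean of fewer than 20 reads per library, all of them outside the protein-coding genes. None of the 13 lower genes coded for protein, and 12 of them had a mean of fewer than 20 reads. Without regard to size, 211 genes were higher (1.58%) and 263 were lower (1.97%), of which 186 and 207 were protein-coding. Their median log2 changes were 0.47 and -0.44. The median over all genes tested was -0.05.

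These counts depended on single libraries and on the fit. Without DMSO replicates 1, 2 and 3 in turn, 95, 46 and 148 genes were higher and 69, 25 and 269 lower at any size. Without the 2 h replicates 1, 2 and 3, 34, 36 and 506 genes were higher and 30, 36 and 248 lower. Fitted on the 6 libraries alone, 7 genes were higher and 2 lower, and centring each library on its median raised the share of higher calls from 44.5% to 67.6%. In that centred fit 459 genes were higher and 220 lower. Spry4, Trh, Socs3 and Tcf15 stayed past the test in every alternative that tested them, and each named gene that passed the test kept its direction in all of them.

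**Figure D1:**
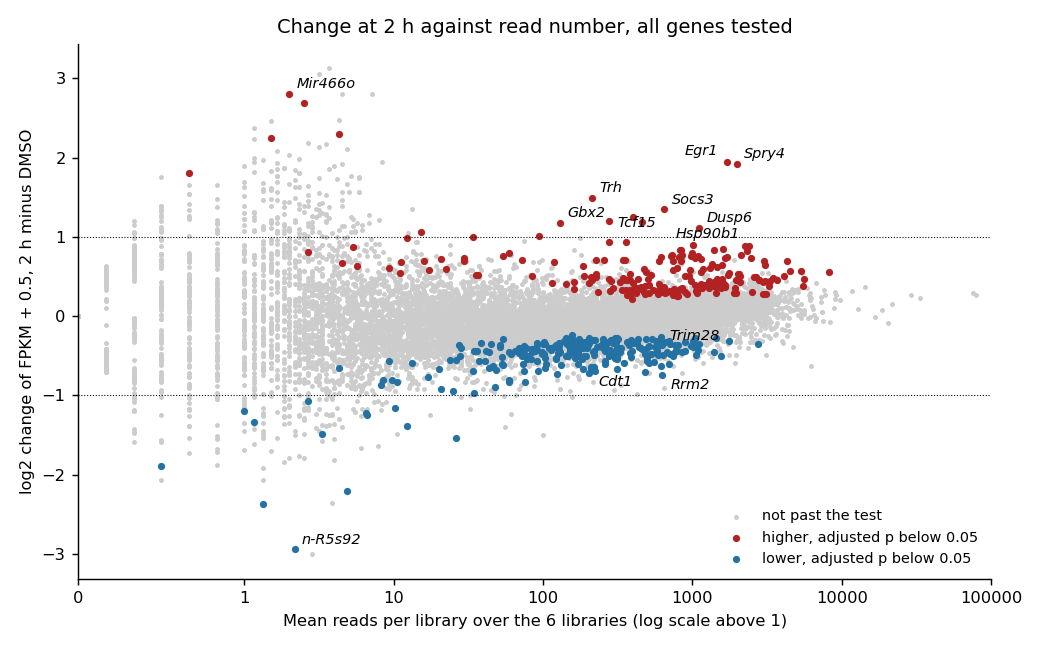
The log2 change of FPKM + 0.5 at 2 h against DMSO (vertical axis) is plotted against the mean reads per library over the 6 libraries (horizontal axis, log scale above 1) for the 13357 genes tested, with 211 higher genes in red and 263 lower genes in blue. Past 100 reads, the genes above the upper dotted line, which marks 2-fold, are few and include Egr1, Spry4, Trh, Socs3, Tcf15, Gbx2 and Dusp6, whereas the 2-fold falls have few reads.

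The protein-coding genes with the largest rises were Egr1, Spry4, Trh, Socs3, Zfp36, Tcf15, Junb, Gbx2 and Dusp6. Most encode immediate early factors or feedback inhibitors of ERK and STAT3 signalling. All 3 of their 2 h libraries lay above all 3 DMSO libraries. This was so for each of the 211 higher genes, so it adds nothing to the test that picked them. Of all genes tested, 8.35% lay above in this way and 17.1% below.

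Immediate early genes are known to be switched on by signalling without the need for new protein. Egr1 (ENSMUSG00000038418.7), a zinc finger transcription factor, had 16.5, 10.3 and 4.96 FPKM in DMSO and 33.1, 38.3 and 42.8 FPKM at 2 h. DMSO replicate 3 was lowest and DMSO replicate 1 was more than 3-fold above it, a wider spread than at 2 h. The log2 change was 1.94 (SE 0.45, adjusted p = 0.0481, limma), the largest among protein-coding genes, and without DMSO replicate 3 it was 1.50 with an adjusted p of 0.0802. Zfp36 (ENSMUSG00000044786.6, chr7:28376784-28380253), which encodes the mRNA decay factor tristetraprolin, had 3.95, 4.78 and 5.49 FPKM in DMSO and 10.9, 10.2 and 15.2 FPKM at 2 h. Its log2 change was 1.26 (SE 0.25, adjusted p = 0.0296), with the 2 h replicate 3 the highest. Junb (ENSMUSG00000052837.6, chr8:84974484-84978718), a subunit of the factor AP-1, had 5.44, 4.91 and 3.85 FPKM in DMSO and 10.3, 11.6 and 12.2 FPKM at 2 h. The change was 1.19 (SE 0.19, adjusted p = 0.0148), and the groups did not overlap.

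The gene lists used here were chosen with earlier results of these data known, so their shares describe them and test nothing. Of the 27 immediate early genes listed, 23 were tested. Of these, 5 were higher (21.7%) and none was lower, beside 1.58% and 1.97% of all genes tested. The other 2 were Fosl2, an AP-1 subunit, with a log2 change of 0.56 (adjusted p = 0.0399), and Nr4a1, an orphan nuclear receptor, with 0.53 (adjusted p = 0.0236). The median of the 23 was 0.49, and 21 were above 0, against 42.1% of all genes. Several members with changes of the same size did not pass the test, among them Arc at 0.99 (adjusted p = 0.0835), Fos at 0.83 (adjusted p = 0.0853), Dusp1 at 0.73 (adjusted p = 0.0772) and Ier2 at 0.67 (adjusted p = 0.0592). Srf and Nr4a2 lay at -0.17 and -0.18. Of 18 alternative settings, 10 ended the call of Egr1, 7 that of Zfp36 and 4 that of Junb.

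**Figure D2:**
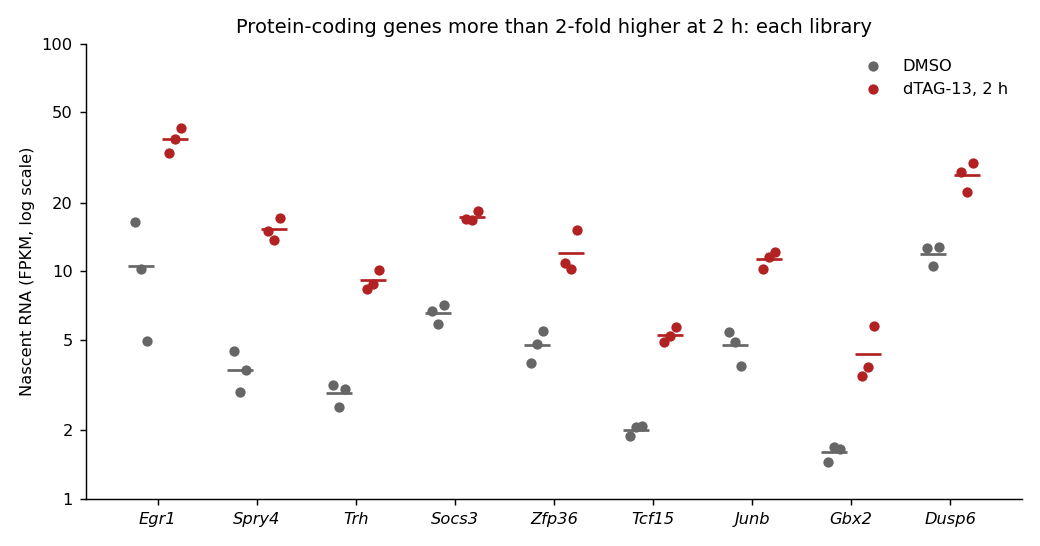
Nascent RNA in FPKM (vertical axis, log scale) of the 9 protein-coding genes that rose more than 2-fold is shown for each library, with DMSO in grey and dTAG-13 for 2 h in red, and bars at the mean of 3 libraries. No gene has overlapping groups, and Egr1 in DMSO has the widest spread, from 4.96 to 16.5 FPKM.

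Feedback inhibitors of FGF-ERK signalling formed a further group. Spry4 (ENSMUSG00000024427.6), a Sprouty protein that restrains receptor tyrosine kinases, had 4.45, 2.96 and 3.69 FPKM in DMSO and 15.0, 13.7 and 17.2 FPKM at 2 h. Its log2 change was 1.92 (SE 0.14, adjusted p = 0.000765), and its lowest 2 h library stood more than 3-fold above its highest DMSO library. Dusp6 (ENSMUSG00000019960.8, chr10:99263231-99267489), a phosphatase that inactivates ERK, had 12.6, 10.5 and 12.7 FPKM in DMSO and 27.5, 22.3 and 30.0 FPKM at 2 h. The change was 1.11 (SE 0.21, adjusted p = 0.0266). Il17rd (ENSMUSG00000040717.6, chr14:27038941-27107286), also called Sef, an inhibitor of FGF signalling, had 1.04, 1.11 and 0.985 FPKM in DMSO and 1.80, 1.92 and 1.81 FPKM at 2 h. With a change of 0.60 (SE 0.06, adjusted p = 0.00287) it moved less than Dusp6 but with less spread.

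Dusp5, a nuclear ERK phosphatase, rose by 0.76 (adjusted p = 0.0334), and Spry2 by 0.74 (adjusted p = 0.0335). Thus 5 of the 16 listed genes of the pathway were higher (31.25%) and none lower, beside 1.58% and 1.97% of all genes tested. All 16 were tested, and their median was 0.25. Calls were lost in 9 of 17 alternatives for Dusp5 and 6 of 18 for Spry2. Dusp6 lost its call in 5 of 18 and Il17rd in 1 of 17. Etv5 and Etv4, transcription factors that also follow ERK activity, had changes of 0.29 (adjusted p = 0.053) and -0.14 (adjusted p = 0.563), and Ccnd1 had 0.01. Fgf4, which encodes the ligand, had 4.63, 3.97 and 3.60 FPKM in DMSO and 5.19, 5.65 and 5.33 FPKM at 2 h, a change of 0.37 that did not pass the test (adjusted p = 0.0886).

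The LIF-STAT3 group was led by its feedback inhibitor. Socs3 (ENSMUSG00000053113.3, chr11:117966079-117970047), which blocks signalling from the LIF receptor, had 6.67, 5.90 and 7.09 FPKM in DMSO and 17.0, 16.8 and 18.4 FPKM at 2 h. The libraries of each group lay close together, and the log2 change was 1.35 (SE 0.12, adjusted p = 0.00277). Gbx2 (ENSMUSG00000034486.8, chr1:89927956-89931179), a homeobox gene downstream of STAT3 in mESCs, had 1.45, 1.70 and 1.66 FPKM in DMSO and 3.48, 3.80 and 5.74 FPKM at 2 h, with replicate 3 the highest. The change was 1.18 (SE 0.17, adjusted p = 0.0104). Bcl3, a nuclear IkB protein, rose by 0.64 (adjusted p = 0.00361), and Pim1, a kinase, by 0.50 (adjusted p = 0.049). Of the 16 listed genes 14 were tested and 4 were higher (28.6%), beside 1.58% of all genes tested. All 14 lay above 0, against 42.1% of all genes, and the median was 0.19. Klf5, Klf4 and Stat3 had 0.49, 0.20 and 0.10 and did not pass the test. Pim1 lost its call in 10 of 18 alternatives, and Gbx2 and Bcl3 in 1 each, whereas Socs3 kept it in all.

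The sequence before the start of Socs3 is shown because STAT factors bind the motif TTCNNNGAA, and that of Zfp36 because it holds this motif and a CArG box, the motif bound by the serum response factor. The runs are the 250 bases before the RefSeq start in GRCm38.p6, at chr11:117969367-117969616, minus strand, and chr7:28379229-28379478, minus strand, and capitals mark the matches on either strand. In the annotation used for counting these genes start further upstream, so both windows lie inside the genes as counted.
Socs3: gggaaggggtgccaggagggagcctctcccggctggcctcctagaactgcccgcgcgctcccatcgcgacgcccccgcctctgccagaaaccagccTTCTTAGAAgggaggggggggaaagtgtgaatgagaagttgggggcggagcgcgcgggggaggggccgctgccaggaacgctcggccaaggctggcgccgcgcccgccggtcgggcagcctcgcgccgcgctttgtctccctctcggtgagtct
Zfp36: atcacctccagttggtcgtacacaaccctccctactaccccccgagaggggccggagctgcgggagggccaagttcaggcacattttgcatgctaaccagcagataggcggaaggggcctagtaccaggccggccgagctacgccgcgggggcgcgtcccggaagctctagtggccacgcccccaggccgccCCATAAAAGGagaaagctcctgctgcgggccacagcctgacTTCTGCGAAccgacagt
The match in Socs3 lay 145 bases before the start, and in Zfp36 the CArG box lay 48 bases and TTCNNNGAA 8 bases before it. Of all 32851 promoter windows of this length, 7.02% held TTCNNNGAA and 1.47% a CArG box, and of the 7257 windows of tested genes 6.66% and 1.38% did. Among the 211 higher genes 134 had a window, of which 7 (5.22%) held TTCNNNGAA and 6 (4.48%) a CArG box, Zfp36 and Dusp5 among the latter. Among the 262 symbols of the lower genes 194 had a window, with 12 (6.19%) and 4 (2.06%).

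Trh and Tcf15 belong to no list used here. Trh (ENSMUSG00000005892.4, chr6:92242061-92244650), the precursor of thyrotropin-releasing hormone, had 3.18, 2.54 and 3.05 FPKM in DMSO and 8.41, 8.81 and 10.2 FPKM at 2 h, a change of 1.49 (SE 0.20, adjusted p = 0.00946). Tcf15 (ENSMUSG00000068079.5, chr2:152143561-152149097), a basic helix-loop-helix factor, had 1.88, 2.08 and 2.09 FPKM in DMSO and 4.91, 5.23 and 5.70 FPKM at 2 h. Its change of 1.20 had the smallest error of the 9 genes (SE 0.08, adjusted p = 0.00067).

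Other signalling targets changed by less. Cyr61 and Ctgf, secreted matrix proteins that follow SRF and YAP, rose from 42.3 ± 1.49 to 74.9 ± 4.09 FPKM and from 17.0 ± 3.00 to 29.6 ± 1.70 FPKM (SD, n = 3), log2 changes of 0.82 and 0.79 (adjusted p = 0.020 and 0.0313, limma). Tpm1 and Tpm4, tropomyosins, rose by 0.46 and 0.33. Thus 4 of 16 tested genes of the SRF-YAP list were higher (25%), beside 1.58% of all genes tested, with a median of 0.23. Of 18 alternatives 9 ended the call of Tpm1, 7 that of Ctgf and 5 that of Cyr61. Smad7, the inhibitory SMAD, rose by 0.64 (adjusted p = 0.0224) as the only 1 of 11 tested BMP-Id genes, and Id1, Id2 and Id3 had 0.34, 0.14 and -0.02. Pmepa1, a feedback gene of TGF-beta and Nodal signalling, rose by 0.84 (adjusted p = 0.0178) as the only 1 of 13 tested Nodal genes. Of the NF-kB list (8 tested), the Wnt targets (5), the Notch genes (4), the p53 targets (14) and the heat shock genes (10) none passed the test. Their medians were -0.06, 0.05, 0.20, -0.01 and -0.06.

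Myc and Bhlhe40 rose, and so did 1 gene each of several small lists, while 1.58% of all genes tested were higher. Genes tested were 11 for interferon, 9 for circadian, 6 for endoderm, 4 for neural and 3 for retinoic acid, with 1 higher in each. Myc (ENSMUSG00000022346.15, chr15:61985391-61990374) had 4.07, 3.23 and 3.36 FPKM in DMSO and 6.92, 6.13 and 8.85 FPKM at 2 h, a change of 0.93 (SE 0.19, adjusted p = 0.0313), and was the only 1 of 9 tested MYC-MAX genes to pass. Bhlhe40, a repressor that also acts in the circadian clock, rose by 0.94 (adjusted p = 0.028), Irf1, an interferon-regulated factor, by 0.71 (adjusted p = 0.047), and Rarg, a retinoic acid receptor, by 0.49 (adjusted p = 0.0237). Sox1, a neural factor, rose by 0.52, from 0.368 ± 0.0661 to 0.743 ± 0.0980 FPKM (SD, n = 3). Its mean was 18 reads in DMSO and 53.3 at 2 h. Sparc, a matrix protein, rose by 0.35 as the only 1 of 6 tested endoderm genes to pass, of which 4 lay above 0. Of 17 alternatives 10 ended the call of Irf1, 8 of Myc, 7 each of Bhlhe40 and Sparc, 5 of Rarg and 4 of Sox1.

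**Figure D3:**
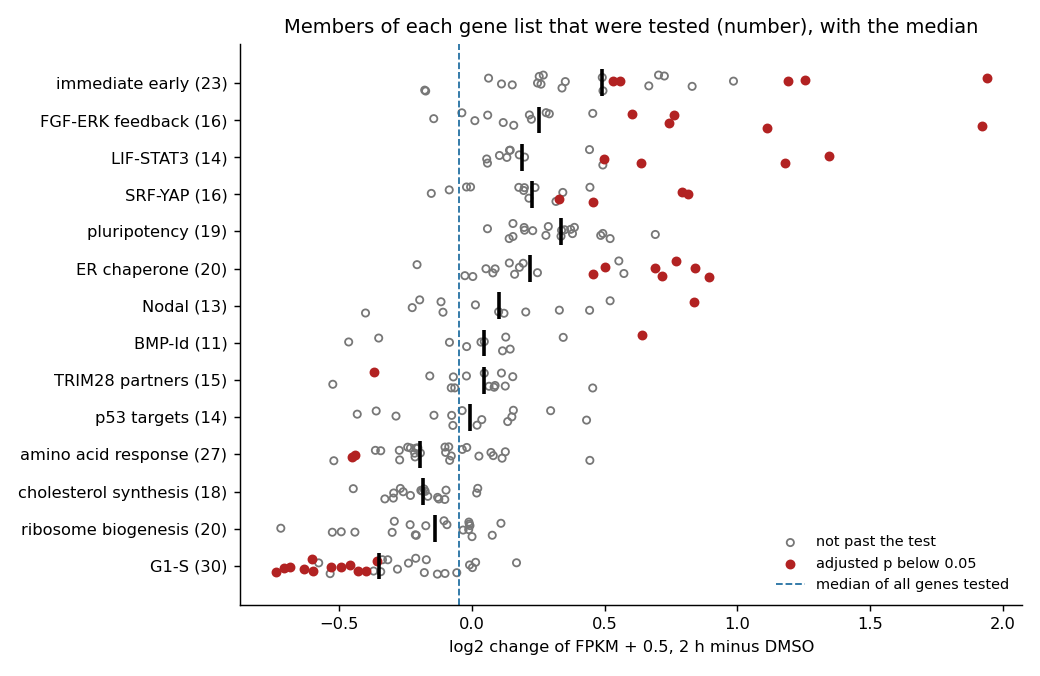
Each point is the log2 change at 2 h (horizontal axis) of a tested member of the list on the vertical axis, filled red where the adjusted p was below 0.05, with black bars at the list medians and a dashed line at the median of all genes, -0.05. The immediate early, FGF-ERK and LIF-STAT3 members reach furthest to the right, and the members of G1-S furthest to the left. The G1-S and ER chaperone lists were drawn up after values were seen, so their places partly follow from that choice. The other lists were chosen with earlier results of these data known.

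Pluripotency factors leaned upward without passing the test. All 19 tested members lay above 0, against 42.1% of all genes, with a median of 0.34 and a range of 0.06 to 0.69. In 9 of them the 2 h libraries all lay above DMSO, which was so for 8.35% of all genes tested. Nanog had 3.07, 3.07 and 2.49 FPKM in DMSO and 4.78, 4.80 and 5.23 FPKM at 2 h, and its change of 0.69 had an SE of 0.24 and an adjusted p of 0.141. Pou5f1, which encodes OCT4, had 4.27, 4.51 and 5.98 FPKM in DMSO and 5.37, 6.53 and 7.25 FPKM at 2 h, and the groups overlapped (0.35, adjusted p = 0.181). Sox2 had 16.4 to 23.3 FPKM in DMSO and 25.6 FPKM or more at 2 h, without overlap (0.34, adjusted p = 0.298). The DMSO replicate 3 was the lowest for Sox2, Nanog, Klf4 and Mycn, and without it the list median was 0.19 and the change of Klf4 was -0.07. With all libraries Klf4 and Sall1 had 0.20 and 0.14, Mycn had 0.34, and Mir290a, at the start of a microRNA cluster of mESCs, had 0.47 (adjusted p = 0.201).

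Genes of folding in the endoplasmic reticulum (ER) also rose, in a list drawn up after their values were seen. Hsp90b1 (ENSMUSG00000020048.13, chr10:86690209-86705509), the ER form of HSP90, had 3.14, 3.18 and 3.63 FPKM in DMSO and 6.77, 6.70 and 6.25 FPKM at 2 h, a change of 0.89 (SE 0.12, adjusted p = 0.00923). Hspa5 (ENSMUSG00000026864.13, chr2:34771970-34777547), the chaperone BiP, had 8.60, 7.13 and 8.35 FPKM and then 14.7, 14.0 and 15.5 FPKM, a change of 0.84 (SE 0.14, adjusted p = 0.0178). Pdia4, Pdia3 and Pdia6, which form disulphide bonds, rose by 0.77, 0.71 and 0.69, and Xbp1 and Dnajb11 by 0.50 and 0.46. Altogether 7 of the 20 listed genes passed (35%), each of them upward, while 1.58% of all genes tested were higher. The median was 0.22. Hyou1, Edem1 and Dnajb9, other genes of the unfolded protein response, had 0.05, -0.03 and -0.21.

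The promoters of Hspa5 and Hsp90b1 are shown because they hold the ER stress element, here CCAAT and CCACG with 9 bases between them. The runs are the 250 bases before the RefSeq start in GRCm38.p6, at chr2:34771840-34772089, plus strand, and chr10:86705445-86705694, minus strand, with matches on either strand in capitals. Both windows overlap the starts of the genes as counted.
Hspa5: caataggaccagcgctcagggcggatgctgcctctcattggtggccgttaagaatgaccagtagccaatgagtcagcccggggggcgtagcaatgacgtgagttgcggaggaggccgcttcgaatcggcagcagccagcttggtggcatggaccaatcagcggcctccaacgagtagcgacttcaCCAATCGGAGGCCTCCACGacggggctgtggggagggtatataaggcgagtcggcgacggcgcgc
Hsp90b1: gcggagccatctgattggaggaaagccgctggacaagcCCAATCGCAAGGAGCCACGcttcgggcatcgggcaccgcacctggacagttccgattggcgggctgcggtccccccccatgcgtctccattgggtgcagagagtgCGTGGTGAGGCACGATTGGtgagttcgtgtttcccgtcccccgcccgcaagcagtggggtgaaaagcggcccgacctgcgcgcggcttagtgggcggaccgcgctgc
Hspa5 had 1 match, 46 bases before the start, and Hsp90b1 had 2, at 193 and 88 bases. Of all promoter windows 0.113% held the element, of the 7257 windows of tested genes 0.193% did, of the 134 windows of higher genes 3 did (2.24%), those of Hsp90b1, Hspa5 and Pdia6, and of the 194 of lower genes none. Of the 17 ER chaperone genes with a window 8 held it, including Calr, Canx, Creld2, Dnajc3 and Syvn1, of which none passed the test for nascent RNA.

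Genes of the G1 to S transition of the cell cycle were lower, again in a list drawn up after values were seen. Rrm2 (ENSMUSG00000020649.11, chr12:24708241-24714146), a subunit of ribonucleotide reductase, had 10.9, 11.4 and 10.6 FPKM in DMSO and 7.47, 6.79 and 5.09 FPKM at 2 h. It fell by 0.74 on the log2 scale (SE 0.13, adjusted p = 0.0215), with replicate 3 the lowest. Cdt1 (ENSMUSG00000006585.3, chr8:122568015-122573554), which licenses replication origins, had 9.80, 8.80 and 8.75 FPKM and then 5.57, 5.70 and 4.92 FPKM (-0.71, SE 0.11, adjusted p = 0.015). E2f1 (ENSMUSG00000027490.17, chr2:154559407-154569892), the transcription factor, had 2.12, 2.45 and 1.95 FPKM and then 1.11, 1.26 and 1.12 FPKM (-0.68, SE 0.09, adjusted p = 0.00923). Of the 30 listed genes 12 were lower (40%) and none higher, beside 1.97% and 1.58% of all genes tested. The median was -0.35.

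The other 9 lower members of that list were Slbp, Cdca7, Tk1, Pcna, Mcm3, Mcm2, Mcm5, Gins2 and Tyms, with log2 changes from -0.63 to -0.36. Pola1, E2f2 and Cdc45 were above 0. No replication-dependent histone gene passed the test (62 tested, median -0.05).

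Most metabolic lists lay below the median of all genes with few calls, beside 1.58% higher and 1.97% lower of all genes tested. Of 27 tested amino acid response genes 2 were lower and none higher: Slc3a2, the heavy chain of an amino acid transporter, fell from 8.00 ± 0.903 to 5.70 ± 0.184 FPKM (SD, n = 3, log2 change -0.45, adjusted p = 0.036, limma), and Stc2, a secreted stress glycoprotein, from 0.736 ± 0.0808 to 0.411 ± 0.0308 FPKM (-0.44, adjusted p = 0.0272). The list median was -0.19, and Chac1, Trib3 and Atf4 had -0.19, -0.20 and -0.24. The 12 tested hypoxia and glycolysis genes had a median of -0.04, beside -0.05 over all genes tested, and 6 lay above 0. Of this list Ldha, lactate dehydrogenase, and Bnip3, a mitophagy receptor, fell by 0.48 and 0.29 (adjusted p = 0.0399 and 0.0229). Of these 4 calls, each was lost in 7 to 9 alternatives, and centring by gene span ended those of Ldha, Bnip3 and Stc2 (adjusted p = 0.0986, 0.12 and 0.106), as centring on medians did for Bnip3 and Stc2. No cholesterol synthesis gene passed (18 tested, median -0.18, 2 above 0), nor did any ribosome biogenesis gene (20 tested, median -0.14) or cytosolic ribosomal protein gene (84 tested, median -0.27, 2 above 0).

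The direction of change moved with the length of the gene. Protein-coding genes of up to 3955 bp, the shortest of 10 classes by span, had a median log2 change of -0.15, and those of at least 97592 bp, the longest, had 0.10. In the shortest class 7 genes were higher and 16 lower, and in the longest 38 and 8. The 186 higher protein-coding genes had a median span of 44392 bp and the 207 lower ones 14822 bp, against 21614 bp for all 8828 tested. After centring within classes of span, the median was 0.60 for immediate early genes, 0.27 for FGF-ERK feedback, 0.32 for LIF-STAT3, 0.44 for pluripotency, 0.30 for ER chaperones and -0.25 for G1-S. It was -0.07 for the amino acid response, -0.11 for cholesterol synthesis and -0.14 for ribosomal proteins. The part of gene length in the calls was not tested beyond this.

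TRIM28 and its partners at ERVs showed little change. Of 15 tested partner genes only Trim28 passed, and 5 of 17 alternatives ended its call. Among these was the fit on DMSO and 2 h libraries alone (adjusted p = 0.137, limma). Setdb1, which encodes the H3K9 methyltransferase, had 0.11, Cbx5, which encodes HP1-alpha, had -0.02, and Zfp57, a zinc finger protein of imprinted regions, had 0.46 (adjusted p = 0.0633). Of 270 tested Zfp genes, 5 were higher (1.85%) and 8 lower (2.96%), beside 1.58% and 1.97% of all genes tested. These were taken by symbol alone, so not all bring TRIM28 to ERVs, and Zfp36 encodes the mRNA decay factor described above. The 5 higher genes were Zfp36, Zfp568, Zfp423, Zfp36l1 and Zfp819, of which all but Zfp36 were picked out after their values were seen. Among 11 tested interferon genes Irf1 was higher and Irf9, an interferon regulatory factor, fell by 0.61 (adjusted p = 0.044). The call of Irf9 was lost in 11 of 17 alternatives.

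Genes near MMERVK and MMETn elements, 2 groups of ERVs, passed the test at shares near those of all genes at 2 h. The amount of TRIM28 protein left at that time was not tested. Genes near IAP elements, another ERV group of the study, were not examined, because the list at hand ended early. Of the genes whose start lay within 50 kb of a full-length MMERVK or MMETn element, 417 of 2665 were tested, of which 5 were higher (1.20%) and 11 lower (2.64%), beside 1.58% and 1.97% of all genes tested. Their median was -0.08 and was -0.02 after centring by span. The 5 were Pdia4, Med27, Elovl5, Pdgfb and Etv6, chosen after their values were seen apart from Pdia4, with changes of 0.77, 0.36, 0.35, 0.34 and 0.28. Within 10 kb 83 genes were tested, none was higher and 3 were lower, Gm20499, 1500011B03Rik and Gm12100, with changes of -0.45, -0.46 and -0.54, named after their values were seen. Cthrc1, whose start lies 2856 bp from such an element, had 0.458, 0.405 and 0.534 FPKM in DMSO and 0.524, 0.346 and 0.571 FPKM at 2 h, and the groups overlapped (0.02, adjusted p = 0.966). At 6 h and 24 h it stood at 0.74 and 2.89 against DMSO, and both times were higher than 2 h (adjusted p = 0.0247 and 7.06e-06). An H3K9me3 peak of all 3 DMSO libraries lay within 5 kb of the start of 891 tested genes. Of these 9 were higher (1.01%) and 25 lower (2.81%), also near the shares of all genes, and their median was -0.08. Peaks numbered 104579 to 126470 per library and were taken whatever their strength. The set includes well transcribed genes such as Nanog, Cyr61 and Ctgf, so it does not stand for silent chromatin alone.

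Genes nearest to super-enhancers leaned upward at 2 h. Of 214 such genes 187 were tested, 22 were higher (11.8%) and none was lower, and the median was 0.15, or 0.12 after centring by span. Among all 9148 tested genes active in mESCs by RNA-seq, 2.01% were higher and 2.37% lower, and the median was -0.04. Spry4 and Socs3 led the 22, followed by Epha2 at 0.89 and Nr5a2 at 0.75, a receptor kinase and a nuclear receptor, both picked out after their values were seen. Spry2, Smad7, Pim1 and Sox1 were also among them. The median without DMSO replicate 3 was 0.10.

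Most of the larger changes outside protein-coding genes rested on few reads. Mir466o, Snord90, Gm24449 and Mir140 had 0 reads in all DMSO libraries and a mean of 4, 5, 3 and 1.33 reads at 2 h, and Gm22051 rose from 0.667 to 8 reads. All 5 lie inside longer genes of the same strand, Mir466o and Gm22051 inside Sfmbt2, Snord90 inside Rc3h2, Gm24449 inside Sos2 and Mir140 inside Wwp2, and the counting let a read count for each gene it overlaps. Gm37436, inside Rbm6, rose from 5.33 to 25.0 reads (1.06, adjusted p = 0.0178). Gm19327 and Mir1192, the other 2 of the 17 higher genes, went from 42.0 to 145 and from 17.3 to 50.3 reads.

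The 13 lower genes of this kind were n-R5s92 and Gm22535, which are annotated as rRNA genes, the small RNA genes Gm25328, Mir1950, Gm23187, Gm25397 and Mir30c-1, the pseudogenes Gm16254, Gm11927, Gm18807, Gm48457 and Gm47255, and the lincRNA Gm49025. The best covered was Gm23187, a snoRNA gene inside Nop56, with 39.2 ± 3.73 FPKM in DMSO and 13.2 ± 1.62 FPKM at 2 h (SD, n = 3), and a mean of 35.7 and 16.7 reads. Its change was -1.54 (adjusted p = 0.0301), while Nop56 itself had -0.72 (adjusted p = 0.0947). The other 12 had means of at most 18.3 reads in DMSO, and n-R5s92, Gm25328, Mir1950, Gm49025 and Gm48457 had none at 2 h.

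The mRNA of the same genes at 2 h was read in other libraries, from RNA-seq of the same line. Among the 211 genes with higher nascent RNA 188 were tested there, of which 32 were higher (17.0%) and 37 lower (19.7%). Of the 10340 genes tested in both assays 12.0% were higher and 8.44% lower in mRNA, and of all 17922 genes tested for mRNA 8.25% and 7.02%. Among the 263 lower genes 232 were tested, 8 were higher (3.45%) and 41 lower (17.7%). Spry4, Dusp6, Dusp5, Zfp36, Junb, Nr4a1, Socs3 and Irf1 were higher in mRNA, by 0.60, 0.54, 0.57, 0.84, 0.47, 0.55, 0.30 and 0.46 on the log2 scale, with adjusted p of at most 0.000193 (limma on log2(TPM + 0.5)). Egr1 went the other way, from 17.5 to 13.1 TPM (-0.41, adjusted p = 0.00359), and so did Gbx2, from 59.0 to 32.8 TPM (-0.84, adjusted p = 1.5e-05), Tcf15 (-0.24), Myc (-0.26), Pim1 (-0.38), Il17rd (-0.32), Sox1 (-0.27) and the ER chaperone gene Pdia4 (-0.17, adjusted p = 0.00893). The mRNA of Trh, Spry2, Hspa5, Hsp90b1, Rrm2 and Cdt1 did not pass the test. Stc2 mRNA fell by 1.35, from 16.0 to 5.94 TPM, and Irf9 mRNA was higher by 0.47 while its nascent RNA was lower.

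**Figure D4:**
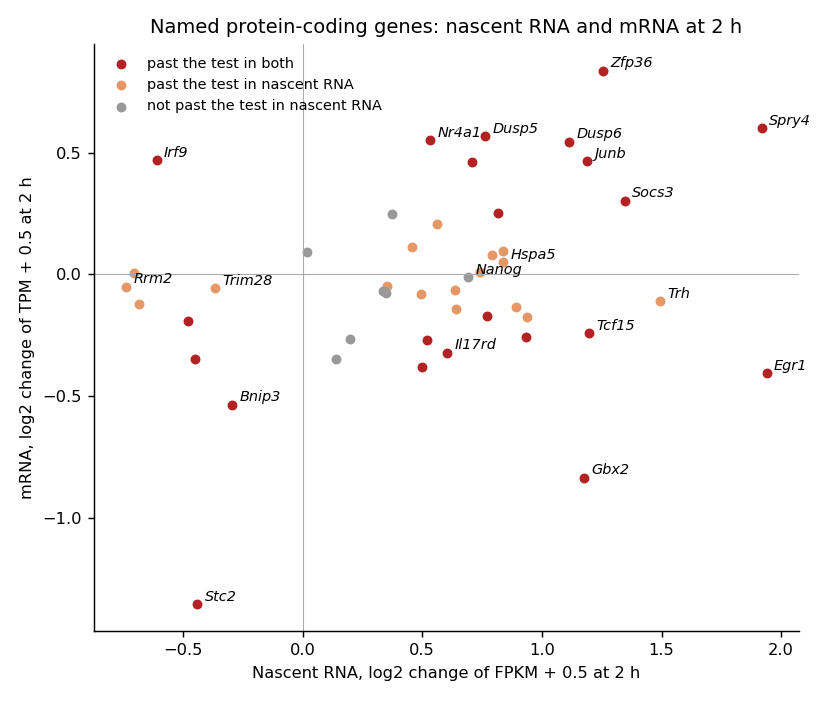
The log2 change at 2 h of mRNA (vertical axis, TPM + 0.5) is plotted against that of nascent RNA (horizontal axis, FPKM + 0.5) for the named protein-coding genes, coloured by which tests they passed. Spry4, Zfp36, Dusp6, Junb and Socs3 lie above 0 on both axes, and Egr1, Gbx2 and Tcf15 are high in nascent RNA and below 0 in mRNA.

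The 6 h and 24 h libraries share the DMSO controls with 2 h, so each time is given by its own values and compared directly with 2 h. Over all genes the median difference was 0.11 from 2 h to 6 h and 0.25 from 2 h to 24 h, and the share of Gm26917 was 26.4% to 27.3% at 6 h and 17.4% to 21.0% at 24 h. By the test 0.883% of genes were lower and 5.65% higher at 6 h than at 2 h, and 4.56% lower and 35.5% higher at 24 h. Of the 211 genes higher at 2 h, 39 were lower and 7 higher at 6 h than at 2 h, and 64 lower and 47 higher at 24 h. Of the 263 lower at 2 h, none was lower and 124 were higher at 6 h, and 3 were lower and 205 higher at 24 h. Since the genes were chosen at 2 h with the same libraries, these counts describe them and test nothing about them as a set.

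Spry4 stood at 1.92, 1.03 and -0.64 against DMSO at 2 h, 6 h and 24 h, with a difference of -2.56 between 24 h and 2 h (adjusted p = 7.06e-06). Dusp6 stood at 1.11, 0.51 and -0.20, Gbx2 at 1.18, 0.95 and -0.82, Tcf15 at 1.20, 0.30 and -0.63, and Myc at 0.93, 0.51 and -1.13, and all 4 were lower at 24 h than at 2 h. Egr1 and Junb had a minimum at 6 h: they stood at 1.94, 0.82 and 1.81, and at 1.19, 0.31 and 1.29, of which only the difference of Junb between 6 h and 2 h passed the test (-0.88, adjusted p = 0.0267). Hsp90b1 and Hspa5 stayed at 0.92 and 0.81 at 6 h and at 1.02 and 1.08 at 24 h, with no difference from 2 h that passed. Il17rd, unlike the other ERK feedback genes named, was higher at 6 h and at 24 h than at 2 h, at 0.96 and 1.33. E2f1 and Ldha stood at -0.17 and 0.19 at 6 h, and Bnip3 reached 1.44 at 24 h. Among the 19 tested pluripotency genes 4 were lower at 6 h and 14 at 24 h than at 2 h and none was higher, with list medians against DMSO of 0.34, 0.06 and -0.32. The G1-S list had medians of -0.35, 0.00 and 0.04, with 10 of 30 genes higher at 6 h and 18 at 24 h than at 2 h.

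**Figure D5:**
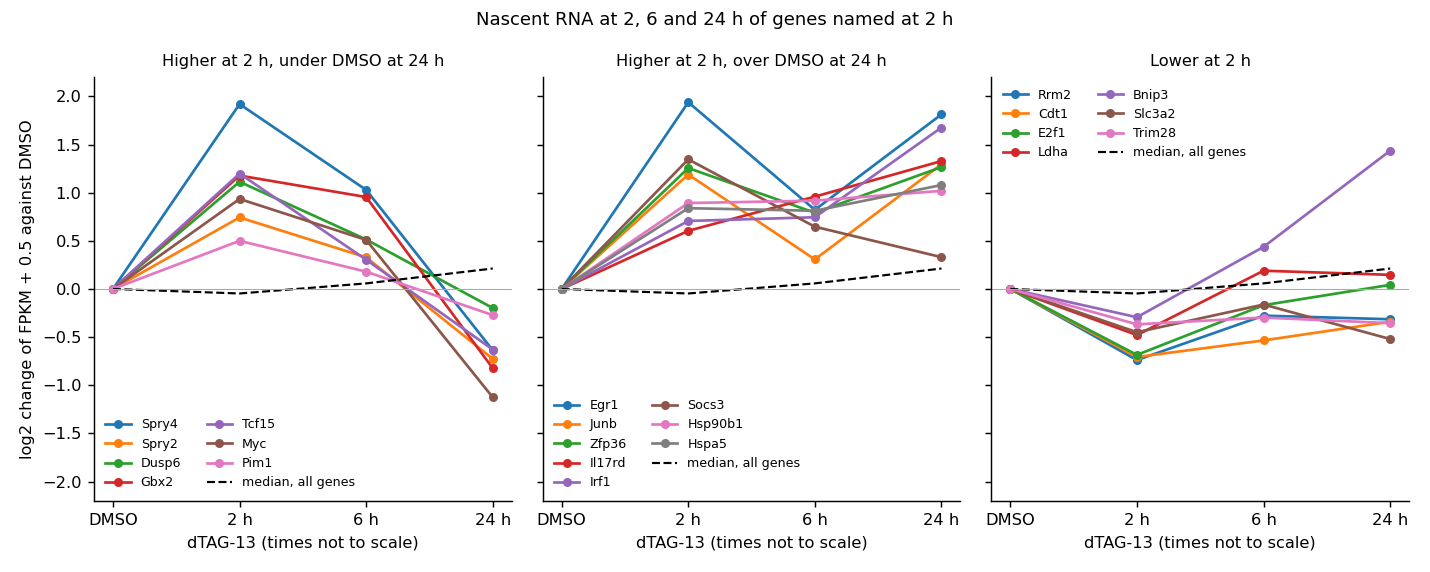
The log2 change against DMSO (vertical axis, FPKM + 0.5) is drawn at 2, 6 and 24 h for named genes, in panels set by their value at 24 h and their direction at 2 h, with a dashed line at the median of all genes. In the left panel Spry4 falls from 1.92 to -0.64 and Myc from 0.93 to -1.13, in the middle panel Egr1 and Junb dip at 6 h, and in the right panel Bnip3 goes from -0.29 to 1.44.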

How the data were processed

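Nascent RNA was measured by TT-SLAM-seq in 12 libraries (DMSO, and dTAG-13 for 2, 6 and 24 h, 3 each). Per the study's methods, the authors trimmed reads, removed rRNA reads, ran SLAM-DUNK with the GENCODE annotation, counted reads with T-to-C conversions per gene on the gene's strand, letting a read count for every gene it overlaps, and deposited FPKM. Tests on low values showed that FPKM is scaled by the genomic span of the gene. Read numbers recovered from it were whole within 0.1 for 98.3% to 99.4% of low values. No spike-in is named in the sources used here. For mRNA, the authors deposited TPM per library (cutadapt 2.4, STAR 2.7.5a, StringTie 2.0.6 per the labels). H3K9me3 peaks were deposited by the authors per library with their fold enrichment (BWA and MACS2 per the labels), of which only positions were used. All 54435 gene identifiers matched a symbol in the StringTie tables.

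Nascent changes were fitted with limma 3.58.1 (R 4.3.3), with a trend of variance on level, on log2(FPKM + 0.5) over the 12 libraries for genes with at least 0.5 FPKM in 3 or more, and p-values were adjusted by Benjamini-Hochberg. mRNA was fitted likewise on log2(TPM + 0.5) over 15 libraries for genes with at least 1 TPM in 3 or more. Genes and lists were chosen with earlier results of these data known. The genes named are the 15 largest rises and 15 largest falls past 2-fold without overlap, listed genes past the test (at most 8 for each signalling, pluripotency, MYC, amino acid and TRIM28 list and 3 for each other), and 10 genes whatever their value, Trim28 among them. Others are said to have been chosen after their values were seen, or are given as members of a list. The script was tested on simulated data with known changes. Promoter sequences are from RefSeq. Alternatives were other pseudocounts, filters and scalings, each library left out, a replicate block, voom on recovered reads and centring by gene span.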

Additional observations from a re-analysis of the deposited data

Results flagged for a closer look

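The change against DMSO of several genes differed between times, by limma with Benjamini-Hochberg adjustment of the difference itself. The values in parentheses are log2 differences of FPKM + 0.5, to be read beside medians over all genes of 0.11 for 6 h minus 2 h and 0.25 for 24 h minus 2 h.

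Of the named genes that passed the test at 2 h, those lower at 6 h than at 2 h were Spry4 (-0.89), Socs3 (-0.70), Tcf15 (-0.89), Junb (-0.88), Nr4a1 (-0.39), Bcl3 (-0.33), Cyr61 (-0.92) and Tpm1 (-0.46). Those higher at 6 h than at 2 h were Gm25397 (2.14), Gm47255 (0.69), Il17rd (0.36), Stc2 (0.36), Ldha (0.67), Bnip3 (0.73) and E2f1 (0.52).

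At 24 h those lower than at 2 h were Mir466o (-1.15), Snord90 (-1.79), Spry4 (-2.56), Trh (-1.39), Socs3 (-1.02), Tcf15 (-1.83), Gbx2 (-2.001), Dusp6 (-1.31), Gm18807 (-0.71), Fosl2 (-0.40), Spry2 (-1.47), Bcl3 (-0.55), Pim1 (-0.77), Ctgf (-0.63), Myc (-2.06), Rarg (-0.29) and Sox1 (-0.32). Those higher at 24 h than at 2 h were Gm25328 (1.42), Gm23187 (0.97), Gm25397 (1.58), Gm49025 (1.82), Gm47255 (1.18), Mir30c-1 (0.98), Il17rd (0.72), Stc2 (0.54), Ldha (0.63), Bnip3 (1.73), Irf1 (0.97), Irf9 (0.80), Rrm2 (0.42), Cdt1 (0.37) and E2f1 (0.73). Several of these, such as Mir466o, Snord90, Gm25328, Gm25397 and Mir30c-1, had means of 5 or fewer reads per library in DMSO and at 2 h. Dixon's test for a value far from the others was not run, since groups held 3 libraries.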

How the results depend on the processing

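Counts are given as genes higher and lower past 2-fold, then higher and lower at any size, against 17, 13, 211 and 263 in the fit reported. They were 42, 30, 258 and 343 with a pseudocount of 0.1, and 13, 7, 186 and 214 with 1. They were 14, 5, 179 and 264 without the filter (34708 genes tested), 8, 1, 22 and 10 for the 1204 genes averaging 5 FPKM or more, and 11, 3, 379 and 586 for genes with a mean of at least 20 reads (10124 genes). Rescaling without Gm26917 gave 28, 34, 486 and 572, centring on library medians 20, 16, 459 and 220, centring within classes of gene span 23, 12, 392 and 254, and voom on recovered reads 53, 52, 924 and 468. With DMSO and 2 h alone they were 7, 2, 7 and 2, and without the 24 h libraries 17, 7, 105 and 100. Leaving out 1 library gave 8 to 34, 3 to 23, 34 to 506 and 25 to 269. The cause of these shifts was not tested. The filter on reads, the centring by span and the fit without 24 h were chosen after seeing the data.

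The share of any-size calls that were higher was 44.5% in the fit reported, 67.6% after centring on medians, 60.7% after centring by span, 66.4% with voom, 68.8% for genes of at least 5 FPKM, 77.8% with DMSO and 2 h alone, and 57.9%, 64.8% and 67.1% without DMSO replicates 1 and 2 and the 2 h replicate 3. It was lower, at 35.5%, without DMSO replicate 3, at 39.3% for genes of at least 20 reads, at 40.4% without the filter and at 42.9% with a pseudocount of 0.1. Of the 211 higher and 263 lower genes, voom called 202 and 216 too, and the fit of DMSO and 2 h alone 5 and 1.

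Same-numbered DMSO and 2 h libraries did not deviate together (correlations 0.0083, 0.0197 and 0.0516), so the numbers were not taken to pair them. With the replicate block the counts were 19, 12, 201 and 198, of which 162 higher and 164 lower were also called without it. Among named genes the block ended the calls of Egr1 (adjusted p = 0.0774), Fosl2, Pim1, Ctgf, Tpm1, Slc3a2 and Irf9 and of the genes Snord90, Gm23187, Gm25397, Gm11927, Gm48457 and Mir30c-1 (0.0561 to 0.0714), and no other.

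Of 1138 values of named genes under alternatives, 806 kept direction and side of the threshold, 324 kept direction but lost the call, 4 gained it and 4 turned. Those that turned were Klf4, with a range of -0.0702 (without DMSO replicate 3) to 0.35 over the fits that left out 1 library, and Cthrc1, with -0.051 to 0.12. All 58 called named genes kept their direction, and 54 lost the call in 1 or more alternatives. Of the 17 higher and 13 lower genes past 2-fold, 6 and 12 had a mean of fewer than 20 reads, where few reads set the fold change.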
